A study of Homo sapiens with 44 samples.

Results

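CXCL12, CXCL14, CXCL16, CX3CL1 and the scavenging receptor ACKR3 were followed in a colon fibroblast line exposed to single cytokines. These 5 genes were taken by symbol from the 40663 symbols of the deposited count table and 4 of them passed the filter on low counts that left 9513 genes for testing. The cells were Ccd-18Co, a fibroblast line from human colon sold by a cell bank and used at up to a limited passage number, so the data describe 1 line in monoculture. There were 44 bulk RNA-seq libraries in 11 groups of 4. Unstimulated cells were set beside cells given 1 of 10 cytokines. TNF, OSM, IL-6, IL-13, IL-22, IL-17A, TGF-β1, IFNγ and IFNα were used at 10 ng/ml. The IL-1β dose was 0.1 ng/ml in the sample labels and 0.01 ng/ml in the legend that describes the experiment. All cells, the unstimulated ones included, were kept without serum for 72 h and harvested after 24 h with or without cytokine. Nothing in the labels says whether the 4 replicates of a group were separate cultures or separate days, so p-values measure only the spread between these libraries, which may be technical.

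Chemokines are small secreted proteins that direct the movement of leukocytes by binding receptors on them. CXCL12, made by stromal cells in many tissues under resting conditions, holds and positions lymphocytes and progenitor cells through the receptor CXCR4, and ACKR3 binds the same ligand without classical G protein signalling and removes it from the surroundings. CXCL14 is another constitutively made chemokine of epithelia and fibroblasts, whereas CXCL16, the ligand of CXCR6, and CX3CL1, the ligand of CX3CR1, are made as membrane-anchored proteins that ADAM10 and ADAM17 cut free.

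In GENCODE 44 on GRCh38 all 5 are protein-coding genes. CXCL12 (ENSG00000107562.18) lies on the minus strand of chromosome 10 from 44370165 to 44386493. CXCL14 (ENSG00000145824.13) lies on the minus strand of chromosome 5 from 135570679 to 135579279. CXCL16 (ENSG00000161921.17) lies on the minus strand of chromosome 17 from 4733533 to 4739928. CX3CL1 (ENSG00000006210.7) lies on the plus strand of chromosome 16 from 57372477 to 57385044, and ACKR3 (ENSG00000144476.6) on the plus strand of chromosome 2 from 236567787 to 236582354. CXCL14 lies inside SLC25A48 on the opposite strand, and the ends of CXCL16 overlap MED11 and ZMYND15, also opposite. The authors quantified with kallisto at its default settings, which do not use strand. Reads from any transcript stretches shared by such genes could therefore not be told apart by strand.

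The RefSeq promoter table on GRCh38.p14 matched 2 of the 5 genes, CXCL12 and CXCL14. The 250 bases before the CXCL12 start are shown because CXCL12 had both the largest called rise and the largest called fall against unstimulated cells among these genes, and capitals mark every match to the GC box letters GGGCGG on either strand. The window is chr10:44385098-44385347, minus strand, read toward the start of transcription. It lies inside the annotated CXCL12 gene, directly before the start of the canonical transcript and within an intron of a longer transcript.
CXCL12: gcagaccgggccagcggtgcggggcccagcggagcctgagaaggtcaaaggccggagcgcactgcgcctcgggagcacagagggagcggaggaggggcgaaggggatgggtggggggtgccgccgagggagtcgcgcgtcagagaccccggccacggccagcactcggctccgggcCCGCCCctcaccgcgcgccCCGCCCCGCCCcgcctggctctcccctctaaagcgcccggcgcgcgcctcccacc
This window was 78% G and C and held 3 GC box matches, all in the reverse orientation, at -74 to -69, -55 to -50 and -50 to -45 from the start, the last pair sharing 1 base. The matching window of CXCL14, chr5:135578992-135579241 on the minus strand, was 64.4% G and C and held 4 matches, at -151 to -146, -140 to -135, -19 to -14 and -15 to -10, the last pair sharing 2 bases. That window lies inside a first exon annotated as untranslated in a longer CXCL14 transcript, and its letters are not shown. A GC box match is common, being present in 42.6% of 35116 promoter windows of the same length. Neither window held a match on either strand to the interferon-gamma-activated (GAS) letters TTCNNNGAA (6.57% of windows), the interferon-stimulated (ISRE) core GAAANNGAA (6.88%), the NF-kB letters GGANTTTCC (1.45%), the TATA letters TATAAA (10.7%) or the hypoxia core ACGTG (18.5%). No match says only that these letters are not in this window.

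In unstimulated fibroblasts CXCL12 and CXCL14 had the highest levels per kilobase among the members. Levels are given as CPM, the rounded estimated counts scaled to a common library total over the tested genes with TMM factors. Members are compared with each other only per kilobase of the canonical transcript. The unstimulated level was 18.3 ± 9.38 CPM per kilobase for CXCL12, 12.3 ± 4.82 for CXCL14, 2.11 ± 0.816 for ACKR3 and 0.837 ± 1.09 for CXCL16 (SD, n = 4 each), and CX3CL1 had 0 counts in all 4 unstimulated libraries. Percentiles among the tested genes use the mean CPM over all groups, OSM included, and are not scaled by length. CXCL12 stood at percentile 69.8 and CXCL14 at percentile 45.6. ACKR3 stood at percentile 5.32 and CXCL16 at percentile 1.31, so both were measured on a handful of counts per library. Libraries held 742173 to 2213424 counts (median 1480883), with the shallowest in the IL-22 and TGF-β1 groups, and 3 counts in 1 library, the lower limit used here for calling a gene measured, corresponded to 1.39 to 3.85 CPM.

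The fibroblast label was matched by its markers. All 10 fibroblast markers were detected in all 44 libraries, among them DCN (median 15764 CPM) and COL1A1 (median 8235 CPM). CD3E and MS4A1 were at 0 in every library, and PTPRC, PECAM1, CDH5 and EPCAM never exceeded 2 counts. The epithelial marker VIL1 had counts in all but 1 library and up to 26.6 CPM. The endothelial marker TEK had up to 8 counts and was at 0 in 20 of 44 libraries, and CSF1R, CD14, VWF and KRT20 had up to 6, 5, 4 and 3 counts and were at 0 in 37 or more.

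A gene is called here where its adjusted p was under 0.05 and its absolute log2 fold change above 1.5 in edgeR's quasi-likelihood test, with p-values adjusted by Benjamini and Hochberg's method over all 9513 tested genes. Against unstimulated cells, TNF called 2 of the 4 tested members, CXCL12 and CXCL14, both lower, where 4.19% of all tested genes were called. IL-1β called 1, CXCL12, lower (background 2.78%), and TGF-β1 called 1, CXCL12, lower (background 1.7%). OSM called 2, CXCL12 higher and ACKR3 lower (background 1.3%). No member was called by edgeR's quasi-likelihood test for IL-6 (background 0.0105%), IL-13 (1.47%), IL-17A (0.452%), IL-22 (0%), IFNα (3.98%) or IFNγ (3.53%). At an unadjusted p under 0.05 these counts were 0 members for IL-6 and IL-17A, 1 for IL-13 and IFNα, and 2 for IL-22 and IFNγ, and DESeq2's Wald test called 0 members for each of these 6 cytokines, giving no adjusted p for 2 of the 4 with IL-13, IL-17A and IFNγ and for all 4 with IL-22. With 4 tested genes these shares are read gene by gene below, and all 10 comparisons use the same 4 unstimulated libraries, so the changes of different cytokines are not independent of each other.

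**Figure D1:**
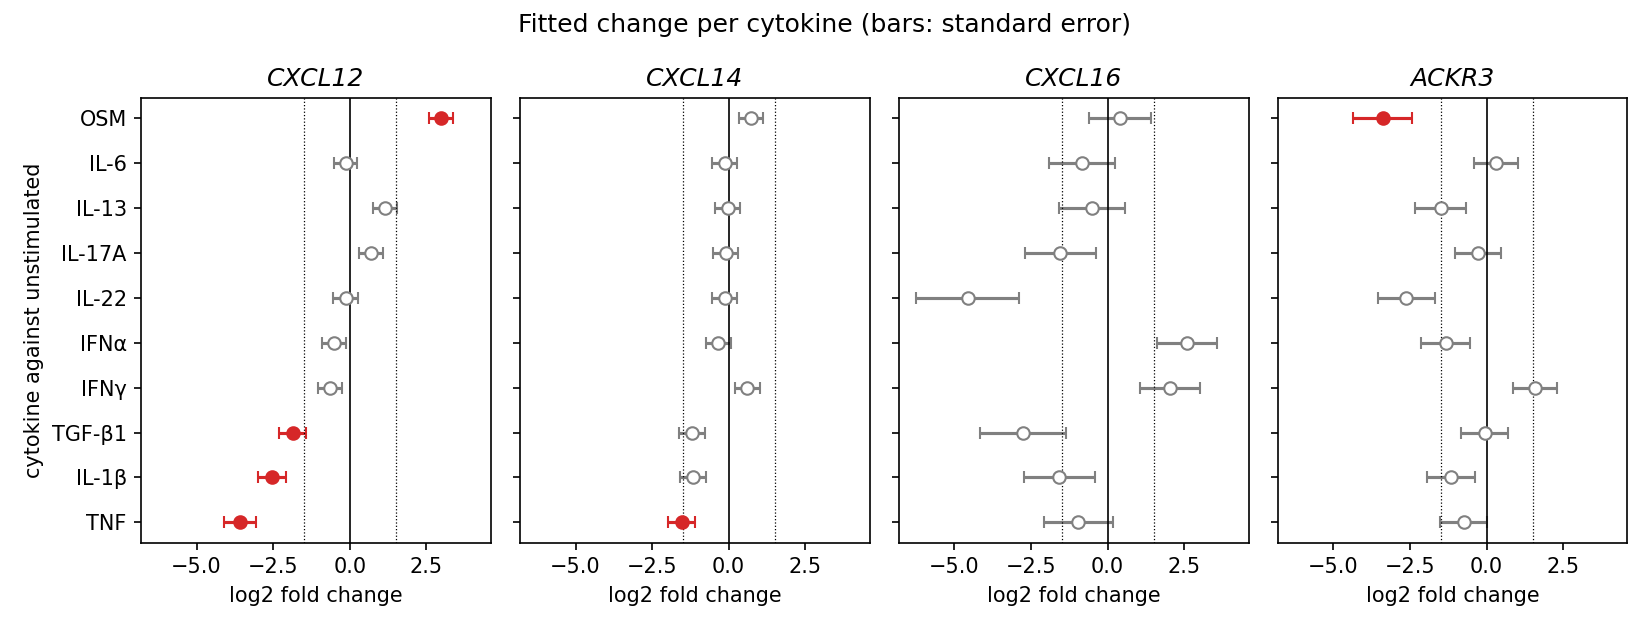
Fitted log2 fold change of each cytokine against unstimulated cells (x axis) for the 4 tested members, 1 panel per gene and 1 line per cytokine (y axis). Bars are standard errors, filled red points are called at an adjusted p under 0.05 with an absolute log2 fold change above 1.5, and dotted lines mark that fold. CXCL12 has 4 called changes, from -3.59 with TNF to 2.99 with OSM, and CXCL14 and ACKR3 have 1 each.

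CXCL12, the CXCR4 ligand, was raised by OSM and lowered by TNF, IL-1β and TGF-β1. In the 4 unstimulated libraries it was at 57.8, 31.3, 14.1 and 38.3 CPM. With OSM, a gp130 cytokine, it was at 277, 320, 214 and 328 CPM. Every OSM library was above every other library of the series. CXCL12 rose by 2.99 on the log2 scale (SE 0.39, adjusted p = 5.89e-07 by edgeR's quasi-likelihood test), from 35.4 ± 18.1 to 285 ± 52.2 CPM (SD, n = 4). Leaving out 1 library at a time gave 2.76 to 3.35. These are bulk RNA samples, and here and below fewer cells making a transcript cannot be told apart from less of it per cell.

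With TNF, CXCL12 was at 2.12, 10.3, 0.750 and 0 CPM, the lowest group of the series, and the highest TNF library was below the lowest unstimulated one. The fall was 3.59 on the log2 scale and was called (SE 0.53, adjusted p = 2.29e-06, edgeR's quasi-likelihood test). It rests on 16 counts in the TNF group against 237 in the unstimulated group. TNF replicate 2 held most of those counts, and without it the log2 fold change was -5.20.

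With IL-1β, CXCL12 was at 11.1, 5.97, 2.54 and 3.89 CPM, again below every unstimulated library, and the log2 fold change was -2.55 (SE 0.46, adjusted p = 8.61e-05, edgeR's quasi-likelihood test). With TGF-β1 it was at 7.80, 11.7, 5.44 and 13.9 CPM, where the highest library stood just under the lowest unstimulated library at 14.1 CPM. The log2 fold change was -1.86 (SE 0.45, adjusted p = 0.00692, edgeR's quasi-likelihood test), and the highest adjusted p on leaving out a library was 0.0459.

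The summed level of the 10 fibroblast markers moved in some of the same groups. It was 29694 to 41659 CPM over the unstimulated libraries, 21641 to 27952 with TNF, 24220 to 32643 with IL-1β, 26223 to 30894 with TGF-β1, 17635 to 34707 with IFNγ, 37547 to 43080 with OSM and 41501 to 52912 with IL-13. The summed contractile markers were 521 to 1614 CPM in unstimulated cells, 292 to 578 with TNF, 201 to 286 with IL-1β, 319 to 457 with IL-17A, 681 to 2230 with TGF-β1 and 1190 to 1817 with IL-13. The part of either in the values of CXCL12 and the other members was not tested.

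The other 6 cytokines gave no called change of CXCL12. IL-13, a type 2 cytokine, came nearest, with 94.3, 66.4, 81.9 and 76.4 CPM, all above the unstimulated libraries. The log2 fold change was 1.16 (SE 0.38, adjusted p = 0.0774, edgeR's quasi-likelihood test), and without unstimulated replicate 1 it was 1.51 with an adjusted p of 0.0309 by the same test. With IL-17A the libraries ran from 35.6 to 75.3 CPM and overlapped the unstimulated range (log2 fold change 0.70, adjusted p = 0.469, edgeR). The means with IL-6 and IL-22 were 32.5 ± 4.85 and 32.5 ± 5.46 CPM, both with log2 fold changes of -0.14. With IFNα and IFNγ the means were 24.6 ± 13.4 and 22.9 ± 7.54 CPM, with log2 fold changes of -0.52 and -0.65 (adjusted p = 0.504 and 0.358, edgeR).

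Ordered by mean, the CXCL12 groups ran from OSM through IL-13, IL-17A, unstimulated, IL-22, IL-6, IFNα, IFNγ, TGF-β1 and IL-1β to TNF, a span of 86.3-fold that became 298-fold without TNF replicate 2. Only the first step, from OSM to IL-13, separated 2 neighbouring groups without overlap of their libraries.

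CXCL14 moved over a narrower range and fell with TNF. Unstimulated libraries were at 17.1, 10.9, 28.1 and 26.6 CPM, and TNF libraries at 9.88, 6.89, 4.50 and 6.96 CPM. The groups did not overlap, although the highest TNF library and the lowest unstimulated library were about 1 CPM apart. The log2 fold change was -1.54 (SE 0.44, adjusted p = 0.0141, edgeR's quasi-likelihood test), close to the threshold on fold. The call was lost without unstimulated replicate 3 (-1.34, adjusted p = 0.0559), without unstimulated replicate 4 (-1.38, adjusted p = 0.0529) and without TNF replicate 3 (-1.36, adjusted p = 0.0658), each by the same edgeR test.

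IL-1β and TGF-β1 gave CXCL14 values that were low without passing the test. With IL-1β the libraries were at 10.1, 9.28, 10.8 and 6.49 CPM, all under the lowest unstimulated library (log2 fold change -1.16, SE 0.42, adjusted p = 0.0923, edgeR). With TGF-β1 they were at 4.68, 8.51, 4.54 and 17.6 CPM, replicate 4 lying inside the unstimulated range (log2 fold change -1.20, SE 0.43, adjusted p = 0.0960, edgeR). Without TGF-β1 replicate 4 the value was -1.79 with an adjusted p of 0.0140 by edgeR's quasi-likelihood test.

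The highest CXCL14 means were with OSM, 34.1 ± 14.5 CPM, and IFNγ, 31.6 ± 13.4 CPM (SD, n = 4). OSM libraries were at 53.6, 35.6, 27.4 and 19.8 CPM and IFNγ libraries at 38.4, 46.5, 25.1 and 16.4 CPM. Both groups overlapped the unstimulated one (log2 fold changes 0.72 and 0.61, adjusted p = 0.401 and 0.388, edgeR). The means of the remaining groups, IL-6, IL-13, IL-22, IL-17A and IFNα, lay between 16.3 and 20.5 CPM. The highest group mean was 4.83-fold the lowest, and each of the 10 neighbouring pairs of groups overlapped.

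**Figure D2:**
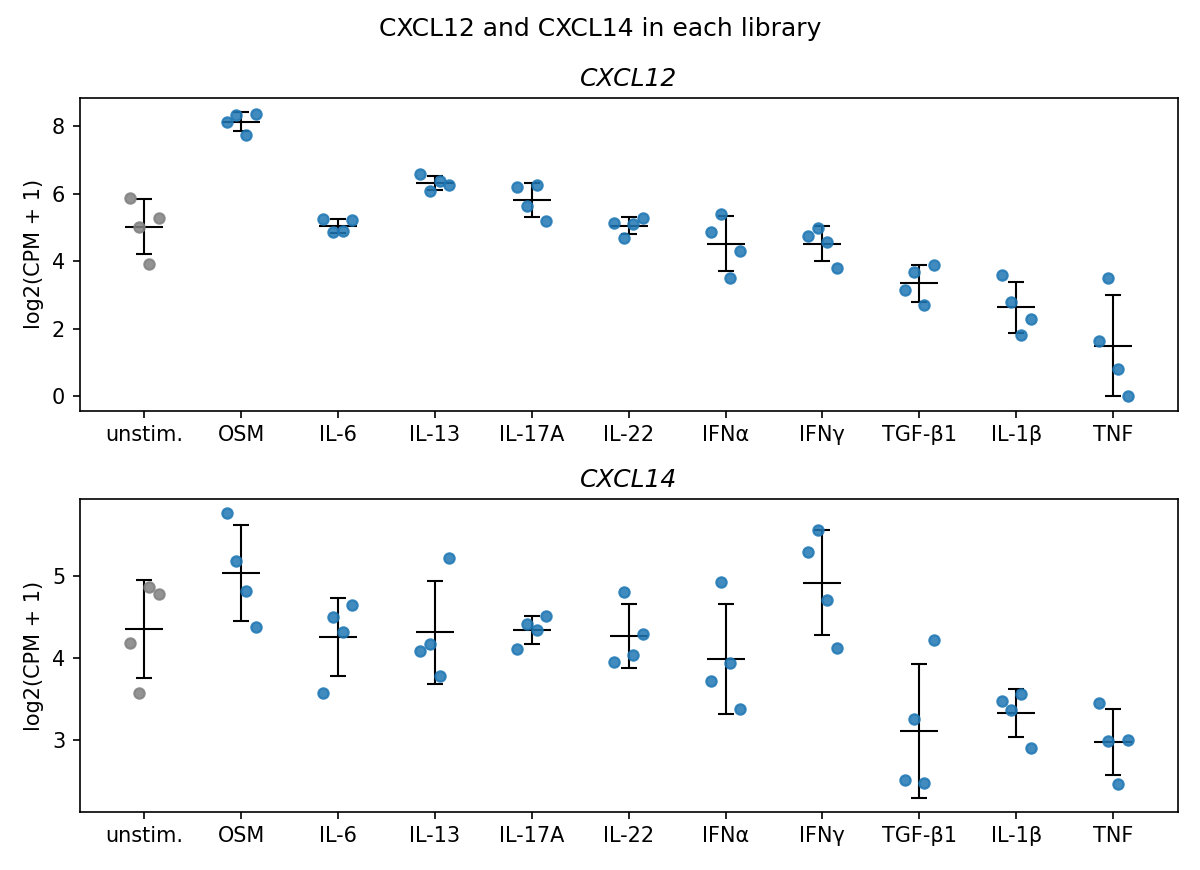
CXCL12 (top) and CXCL14 (bottom) as log2(CPM + 1) on the y axis in each of the 44 libraries, by group on the x axis, in grey for unstimulated cells and blue for cytokines. Horizontal lines are means and bars are SD over the 4 libraries on that scale. For CXCL12 the OSM libraries (214 to 328 CPM) stand above all others, and for CXCL14 the TNF libraries (4.50 to 9.88 CPM) lie under all 4 unstimulated ones.

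CXCL16, a membrane-anchored chemokine and the CXCR6 ligand, was found mainly in the interferon groups. Unstimulated libraries were at 1.47, 0, 5.63 and 0.683 CPM, 12 counts in all. With IFNα they were at 19.8, 5.93, 15.9 and 6.85 CPM (76 counts), and with IFNγ at 8.29, 4.98, 9.54 and 9.97 CPM (42 counts). All IFNα libraries were above all unstimulated libraries, whereas unstimulated replicate 3 overlapped the IFNγ group.

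Neither interferon change of CXCL16 passed the test. The log2 fold change was 2.60 with IFNα (SE 0.97, adjusted p = 0.0858) and 2.04 with IFNγ (SE 0.98, adjusted p = 0.195) by edgeR's quasi-likelihood test. CXCL16 passed the filter on low counts only through 2 IFNα and 3 IFNγ libraries, so its values in these groups are a description, and with all genes of any count tested the adjusted p was 0.147 and 0.348 (edgeR). Unstimulated replicate 3 held 8 of the 12 unstimulated counts, and without it the IFNα value was 3.86 with an adjusted p of 0.0311 by the same test. From counts alone the ratio of IFNα to unstimulated was 6.44 (95% interval 3.48 to 13.0, exact, covering counting error only).

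Elsewhere CXCL16 was at or near the lower limit. OSM libraries were at 2.44, 4.15, 2.00 and 1.65 CPM, and IFNγ and OSM were the 1 pair of neighbouring groups in the order of means that did not overlap. IL-22 libraries had 0 counts. The gene was not measured, with at most 3 counts in every library, in 4 of the 11 groups, and it had a count in 26 of 44 libraries.

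CX3CL1, the other membrane-anchored chemokine, was not measured in any group. It had 12 counts in the whole series, spread over 10 libraries, with at most 3 in any of them. IL-6 had 3 of these counts, all in 1 library, OSM, IFNα and IL-1β had 2 each, and TNF, IL-17A and IFNγ had 1 each. It did not pass the filter on low counts. In an exact two-sided permutation test on log2(CPM + 1), over all 70 divisions of 8 libraries into 4 and 4, the smallest p of the 10 cytokines was 0.429. With all unstimulated libraries and at least 2 in each cytokine group at 0, this permutation test could give no small p. It therefore decides nothing about CX3CL1. When the filter was removed edgeR's quasi-likelihood test called CX3CL1 for 0 of 10 cytokines. The 0 counts over the 4 unstimulated libraries together allow a level of up to 0.476 CPM, which is what 3 counts over that group meant (counting error only).

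**Figure D3:**
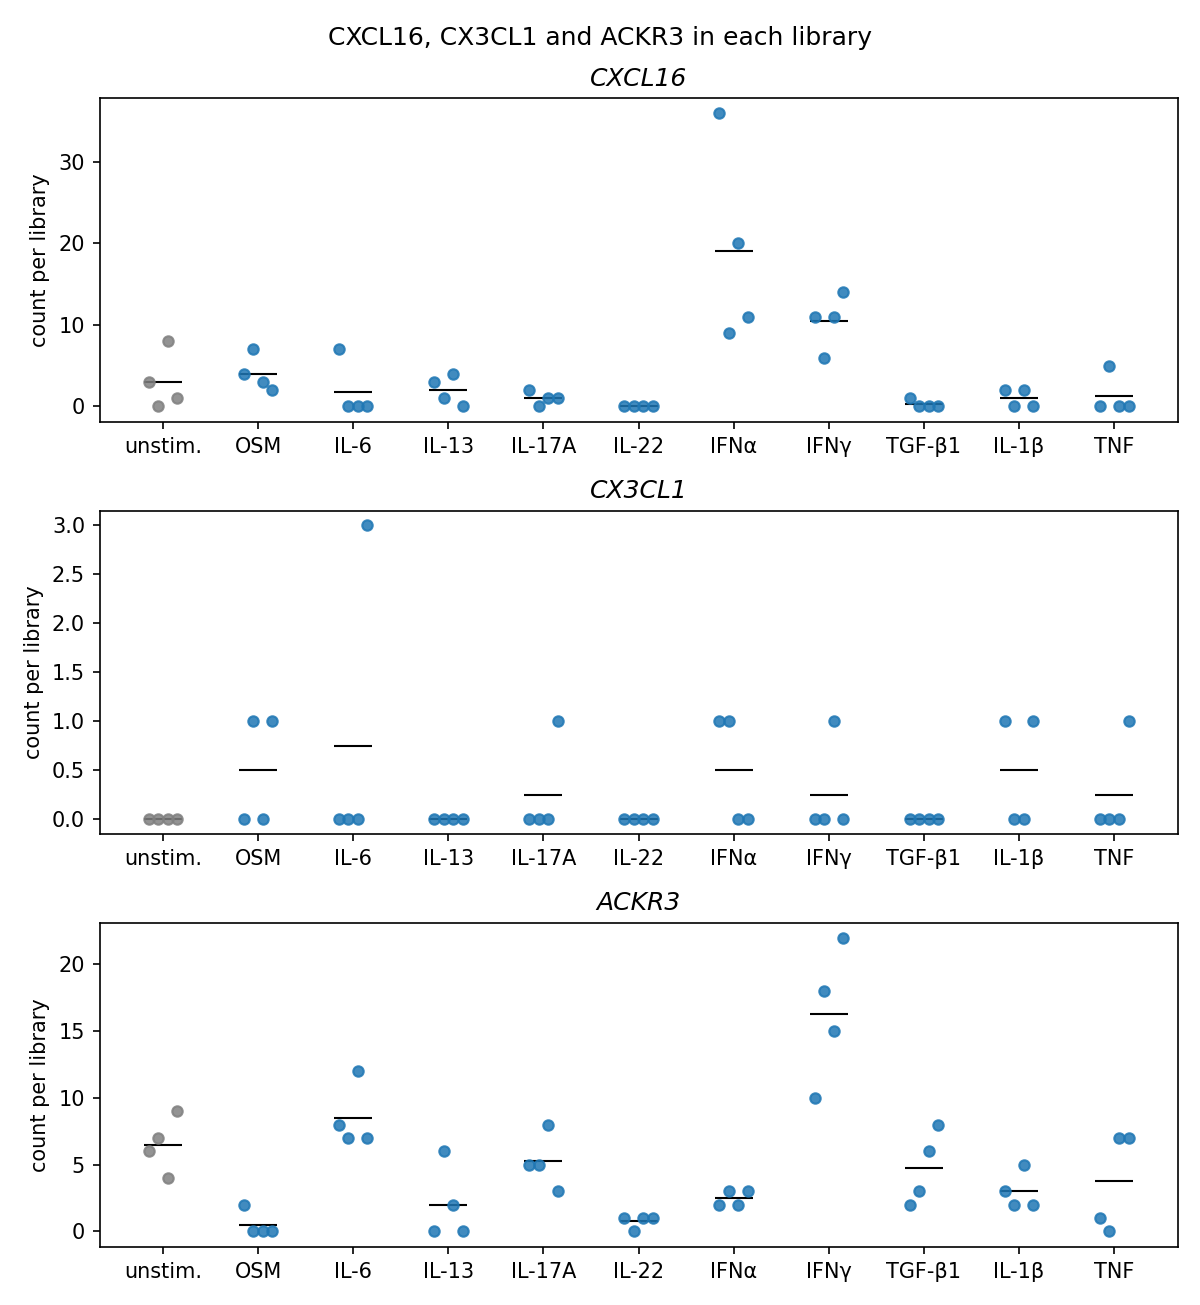
Rounded counts per library (y axis, linear) of CXCL16 (top), CX3CL1 (middle) and ACKR3 (bottom) by group (x axis), with a horizontal line at the mean of the 4 libraries. CXCL16 reaches 36 counts with IFNα and ACKR3 reaches 22 with IFNγ, while CX3CL1 does not exceed 3 counts in any library.

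ACKR3, the scavenging receptor for CXCL12 and CXCL11, was low in unstimulated cells and nearly absent with OSM. Unstimulated libraries were at 2.94, 5.10, 2.81 and 6.15 CPM (26 counts), and OSM libraries at 1.22, 0, 0 and 0 CPM (2 counts). The groups did not overlap. From counts alone ACKR3 was 12.5-fold lower with OSM (95% interval 3.12 to 108, exact, counting error only). The fitted log2 fold change was -3.39 (SE 0.97, adjusted p = 0.0326, edgeR's quasi-likelihood test) and is no firm size, since with 2 counts it depends on the fit. Without OSM replicate 1 it was -5.64. The call was lost without unstimulated replicate 2 (adjusted p = 0.0780) or 4 (0.103) and without OSM replicate 2 (0.129), 3 (0.122) or 4 (0.0991), all by edgeR. With all genes of any count tested the adjusted p was 0.107 (edgeR), and DESeq2's Wald test gave no adjusted p.

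IFNγ had the highest ACKR3 level, at 7.53, 15.0, 13.0 and 15.7 CPM (65 counts), above every unstimulated library. The gene passed the filter on low counts through this group, which held 4 of the 5 libraries over the limit, so its values against IFNγ are a description. Without the IFNγ libraries ACKR3 would not have passed, so its OSM calls too were tested only because of them. The IFNγ difference of 1.58 on the log2 scale did not pass the test (SE 0.73, adjusted p = 0.173, edgeR). IFNα libraries, at 1.10, 1.98, 1.59 and 1.87 CPM (10 counts), were all under the unstimulated libraries instead (log2 fold change -1.33, adjusted p = 0.359, edgeR). IL-22 libraries were at 0.760, 0, 1.28 and 0.640 CPM (3 counts), from which ACKR3 was 6.86-fold lower than unstimulated (95% interval 2.10 to 35.4, exact, counting error only) with an adjusted p of 0.256 by edgeR's quasi-likelihood test.

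In the other groups ACKR3 overlapped the unstimulated range. IL-6 libraries ran from 4.23 to 7.59 CPM, IL-17A libraries from 1.72 to 6.41, TGF-β1 libraries from 1.56 to 5.87, TNF libraries from 0 to 5.25, IL-13 libraries from 0 to 4.63 and IL-1β libraries from 1.30 to 3.18. ACKR3 had a count in 37 of 44 libraries and was measured in 8 of 11 groups, the others being IFNα, IL-22 and OSM. Each of the 10 neighbouring pairs of groups in the order of its means overlapped.

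Cytokines were then compared with each other in the same fit, since a call for 1 cytokine and not for another does not show that they differ. IFNα against IFNγ called 1 of 4 tested members, ACKR3, where 2.74% of all tested genes were called. ACKR3 was lower with IFNα in all 4 libraries than in any IFNγ library, 10 counts against 65 (log2 fold change -2.91, SE 0.79, adjusted p = 0.0118, edgeR's quasi-likelihood test). Without IFNα replicate 1 the adjusted p was 0.0512, and with all genes of any count tested it was 0.0544 (edgeR). As ACKR3 was kept for testing through its IFNγ libraries, this count of members is a description. CXCL16 did not differ beyond its spread (0.56, SE 0.88, adjusted p = 0.795, edgeR), nor did CXCL14 (-0.95, SE 0.41, adjusted p = 0.155).

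OSM against IL-6, which share the signalling subunit gp130, called 2 of 4, CXCL12 higher and ACKR3 lower with OSM (background 1.02%). IL-6 libraries were at 37.1, 28.1, 28.5 and 36.2 CPM for CXCL12, all under the OSM libraries (log2 fold change 3.13, SE 0.39, adjusted p = 4.08e-07, edgeR's quasi-likelihood test). For ACKR3 they were at 4.57, 4.58, 7.59 and 4.23 CPM, 34 counts against 2, which is 15.8-fold lower with OSM (95% interval 4.04 to 135, exact, counting error only). The edgeR adjusted p was 0.0195, and the fitted value moved from -3.69 to -5.95 without OSM replicate 1. The call was lost without IL-6 replicate 3 or OSM replicate 2, 3 or 4. It was also lost with all genes of any count tested (adjusted p = 0.0677, edgeR), and DESeq2's Wald test gave no adjusted p.

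TNF against IFNγ called 3 of 4, CXCL12, CXCL14 and ACKR3, all lower with TNF (background 3.65%). TNF libraries lay under the IFNγ libraries of each gene without overlap. CXCL12 had a log2 fold change of -2.94 (SE 0.55, adjusted p = 0.000140) and CXCL14 one of -2.14 (SE 0.44, adjusted p = 0.000545) by edgeR's quasi-likelihood test. Without TNF replicate 2 the CXCL12 value was -4.58. ACKR3, kept for testing through its IFNγ libraries, was at -2.32 (SE 0.76, adjusted p = 0.0484, edgeR). The adjusted p was 0.198 with all genes of any count tested and 0.0519 with the filter of at least 10 counts, and the call was also lost when any 1 of the 4 IFNγ libraries or TNF replicate 1, 2 or 4 was left out. CXCL16 was at -2.999 (adjusted p = 0.0810, edgeR). Of the alternatives tried, CXCL16 was called only without TNF replicate 2, which held all 5 of its TNF counts (-6.62, adjusted p = 0.00514, edgeR). CXCL16 too was kept for testing through IFNγ libraries, together with IFNα ones. Its values against IFNγ and the count of 3 of 4 members are therefore descriptions.

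IL-17A against IL-1β called 1 of 4, CXCL12, higher with IL-17A (background 1.27%). The IL-17A libraries were at 73.3, 48.4, 75.3 and 35.6 CPM, each above every IL-1β library (log2 fold change 3.24, SE 0.45, adjusted p = 2.32e-06, edgeR's quasi-likelihood test), and the doses of IL-17A and IL-1β differed. TNF against IL-1β called 0 of 4 members (background 0.368%), and 0 at an unadjusted p under 0.05 or by DESeq2's Wald test, which gave no adjusted p for 2 of the 4. The CXCL12 value was -1.05 (SE 0.62, adjusted p = 0.529, edgeR), and the doses of TNF and IL-1β differed.

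Across the 11 group means of log2(CPM) (prior count 2) CXCL12 and CXCL14 were the most alike pair of members, with a Pearson r of 0.850. For CXCL12 and ACKR3 r was -0.284, and for CXCL16 and ACKR3 it was 0.260. All points share the same libraries and scaling, so these values are descriptions.

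**Figure D4:**
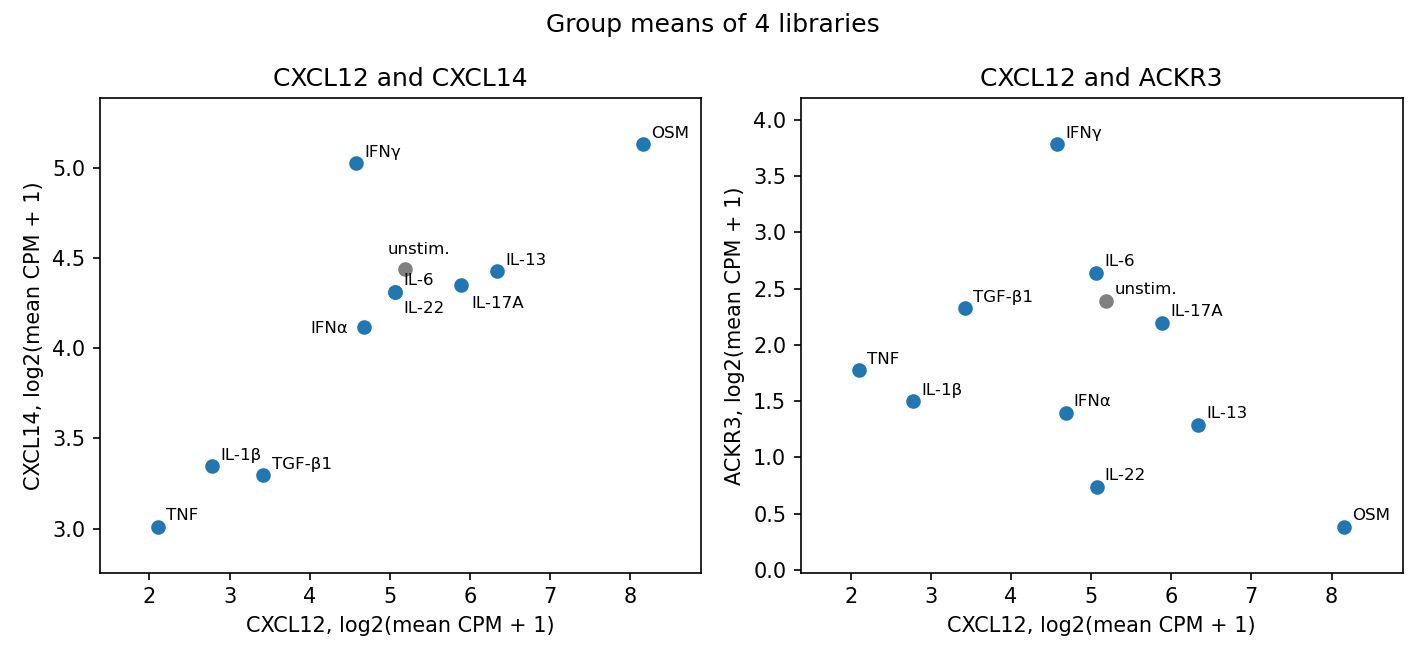
Group means of 4 libraries as log2(mean CPM + 1), with CXCL12 on the x axis against CXCL14 (left) and ACKR3 (right) on the y axis, in grey for unstimulated cells and blue for cytokines. TNF, IL-1β and TGF-β1 are low for both CXCL12 and CXCL14, and OSM is highest for CXCL12. ACKR3 is lowest with OSM, where it was not measured, as with IL-22 and IFNα.

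The genes with the most similar profile over the 11 group means were sought among 9507 genes. For CXCL12 they were HEG1 (r = 0.959), GLT8D2 (0.938) and EFEMP1 (0.925), the last an extracellular matrix glycoprotein. For CXCL14 they were LITAF (0.948), SLC46A3 (0.891) and YBX3 (0.885). For CXCL16 they included LGALS3BP (0.957) and IFI35 (0.957), and for ACKR3 they were MMAA (0.903), CAPRIN1 (0.861) and GNB5 (0.835). A search of 9507 genes over 11 points finds high values by itself, so these are descriptions. CXCL16 was not measured in 4 of the 11 groups and ACKR3 in 3.

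Of 31 partner genes (receptors, other ligands, sheddases, proteases, arrestins and kinases) 13 could be tested. The signalling receptors of these ligands were not among them. CX3CR1 had 0 counts in all libraries, CXCR4 at most 4 counts in 2 libraries, and CXCR6 at most 3 counts. Both sheddases of CXCL16 and CX3CL1 were present in all 44 libraries and not called for any cytokine, ADAM10 with group means of 72.1 to 126 CPM and ADAM17 with 122 to 240 CPM.

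Partner genes were called for 5 of the 10 cytokines. In edgeR TNF, IFNα and IFNγ each called the same 3, all higher. These were CXCL11, another ligand of ACKR3, ACKR4, a scavenger of other chemokines, and CTSS, a cathepsin that can cleave chemokines. DESeq2's Wald test called 3, 3 and 2 of the 13, with no adjusted p for 3 with IFNγ. CXCL11 was at 1.06 ± 2.11 CPM in unstimulated cells, 26.4 ± 26.5 with TNF, 3880 ± 194 with IFNα and 2329 ± 289 with IFNγ (SD, n = 4). The edgeR log2 fold changes were 4.72 (adjusted p = 0.000870), 11.86 (8.21e-14) and 11.12 (6.45e-13). Unstimulated replicate 3 held all 6 unstimulated counts of CXCL11, and without it these values were 8.34, 15.48 and 14.74. CTSS was at 1.93 ± 1.1 CPM in unstimulated cells, 31.9 ± 7.67 with TNF, 18.0 ± 8.44 with IL-1β, 54.8 ± 9.62 with IFNα and 80.4 ± 29.8 with IFNγ, and was called higher in these 4.

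ACKR4 passed the filter on low counts mainly through 4 IFNα and 4 IFNγ libraries, so its calls in these groups are a description. It had 0 counts in all unstimulated libraries. Against a floor of 3 counts over that group it was at least 45.4-fold higher with IFNα (134 counts) and at least 52.0-fold higher with IFNγ (126 counts), and the lower 95% limits of these ratios from counts alone were 36.4 and 41.7 (exact, counting error only). With TNF it had 19 counts, 15 of them in replicate 4 and 0 in replicates 1 and 2, so the groups overlapped. That call (adjusted p = 0.0325, edgeR) was lost in 6 of the 8 fits that left out 1 library, with an adjusted p of 0.187 without TNF replicate 4. ACKR3 cannot be set against ACKR4 with IFNα, since it had at most 3 counts in every IFNα library and so was not measured there. Its lower IFNα values did not pass the test. TGF-β1 called CXCL11 higher (43.2 ± 41.2 CPM, edgeR adjusted p = 0.000271), with 0 counts in TGF-β1 replicate 1 and a log2 fold change of 5.38 that became 9.00 without unstimulated replicate 3. It also called DPP4, the membrane peptidase that truncates CXCL12, lower, from 85.9 ± 30.8 to 22.0 ± 12.5 CPM (log2 fold change -1.97, SE 0.32, adjusted p = 4.33e-05, edgeR).

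With IL-6, IL-13, IL-17A, IL-22 and OSM edgeR's quasi-likelihood test and DESeq2's Wald test each called 0 of the 13 partners, with 0, 2, 2, 3 and 5 at an unadjusted p under 0.05. DESeq2 gave no adjusted p for 4 of the 13 with IL-17A, 7 with IL-22 and 3 with OSM. With OSM neither the tested sheddases nor DPP4 (51.3 ± 11.0 CPM, log2 fold change -0.74, adjusted p = 0.185, edgeR) was called. Any part of these genes in the OSM values of CXCL12 and ACKR3 was not tested.

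Inflammatory chemokines gave other counts in the same groups. The 6 neutrophil chemokines CXCL1, CXCL2, CXCL3, CXCL5, CXCL6 and CXCL8 were all called higher with TNF and with IL-1β, the cytokines with the lowest CXCL12, with median log2 fold changes of 4.33 and 6.76, and each remained called when any 1 library was left out. Unstimulated replicate 4 had the highest level of all 6 in its group, for example 554 CPM of CXCL8 against 19.7 to 85.1 CPM in the other 3, and without it the value of CXCL2 with TNF moved from 4.41 to 8.85 on the log2 scale. With OSM 0 of 6 were called by edgeR's quasi-likelihood test, against 3 at an unadjusted p under 0.05 and 1 by DESeq2. With IL-17A 3 of 6 were called higher, or 2 to 4 when 1 library was left out, CXCL3 being lost without unstimulated replicate 1 or 2. With IL-13 4 of 6 were called lower (CXCL1, CXCL3, CXCL5 and CXCL8), but CXCL1, CXCL3 and CXCL8 overlapped the unstimulated range. Without unstimulated replicate 4 edgeR called 0 of 6 with IL-13, and without IL-13 replicate 2 it called 2. Of the CXCR3 ligands CXCL9, CXCL10 and CXCL11, all 3 were called higher with IFNγ, 2 with IFNα, TNF and TGF-β1, and 1 with IL-1β. CXCL9 passed the filter on low counts only through its IFNγ libraries, so its call there is a description. The shares of all tested genes called for each cytokine are given above. The median log2 fold change of all tested genes lay within 0.05 of 0 in each comparison.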

How the data were processed

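Total RNA of the Ccd-18Co line was made into libraries with the NEBNext Ultra II RNA kit and sequenced on an Illumina NovaSeq instrument. The authors deposited 1 table of estimated counts per gene symbol, made with kallisto 0.48.0 at its default settings, with the build hg38 named in the submitters' processing notes. Of all deposited estimated counts, 0 values included, 5.77% were not whole, and they were rounded to whole numbers. Pseudo-alignment divides reads between similar transcripts, so a low gene can hold part of another gene's reads.

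In R 4.3.3, edgeR 4.0.16 fitted all 44 libraries with 1 coefficient per group (TMM scaling, filterByExpr over the 11 groups, 9513 genes kept, common biological coefficient of variation 0.331). The quasi-likelihood test compared each cytokine with unstimulated cells and 5 pairs of cytokines, with Benjamini-Hochberg adjustment over all tested genes within a comparison. The script was tested on simulated data. The study used a negative binomial test (DESeq2), here an alternative (version 1.42.0). Others were DESeq2 size factors, 2 other filters on low counts (any count, or at least 10 counts in at least 4 libraries), a fit of the 8 libraries compared, a replicate block, other fold thresholds, and leaving out each library.

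Named genes were the 5 members in every group, partner genes where called or where they are the defining receptor, protease or ligand, and for each tested member the 3 genes with the highest Pearson r over the 11 group means among genes with a mean log2(CPM) of at least 1. One gene that this rule names is not reported here. The members and lists were chosen with earlier results of these data known. Among the 66 pairs of replicates none had identical counts, and the lowest chi-square per degree of freedom was 3.21. In none of 15 comparisons was every correlation between samples with the same replicate number over 0.1 (range -0.125 to 0.281), so the numbers were treated as labels. Intervals cover counting error only.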

Additional observations from a re-analysis of the deposited data

Results flagged for a closer look

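In 4 of 37 groups of 4 libraries with a measured member, Dixon's test at the 95% level set 1 library apart. The 1.85 that chance would give holds for continuous, normal values, which low counts are not, so it cannot be set against 4. Where the other 3 libraries are at 0 the test's ratio is 1 for any count, as for CXCL16 here. CXCL16 was at 4.31 CPM (5 counts) in TNF replicate 2 and at 0 in the other 3 TNF libraries. It was at 4.00 CPM (7 counts) in IL-6 replicate 1 and at 0 in the other 3 IL-6 libraries. ACKR3 was at 3.18 CPM (5 counts) in IL-1β replicate 3, against 1.30 to 1.51 CPM in the others. It was at 7.59 CPM (12 counts) in IL-6 replicate 3, against 4.23 to 4.58 CPM in the others.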

How the results depend on the processing

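Of 790 alternative values of the tested members, 730 kept their direction and their side of the threshold, 26 lost a call, 4 gained one and 30 changed sign. Counts of members called changed as follows. DESeq2's Wald test and testing all genes with any count each gave 1 in place of 2 for OSM against unstimulated and for OSM against IL-6, and 0 in place of 1 for IFNα against IFNγ. TNF against IFNγ gave 2 in place of 3 with all genes with any count and with the filter of at least 10 counts. Fits of only the 8 libraries compared gave 1 for both OSM comparisons and 1 in place of 3 for TNF against IFNγ. DESeq2 gave ACKR3 no adjusted p in the lost cases. In the fits of 8 libraries for both OSM comparisons and for TNF against IFNγ, ACKR3 had no value and so was not tested. The cause of the other changes was not tested. With all genes with any count the edgeR adjusted p of ACKR3 was 0.107 for OSM against unstimulated, 0.0677 against IL-6, 0.0544 for IFNα against IFNγ and 0.198 for TNF against IFNγ, the last being 0.0519 with the filter of at least 10 counts. In fits of 8 libraries that of CXCL12 for TNF against IFNγ was 0.0588. The replicate block (the replicate number as a block) gave 2 members for TNF, 1 for IL-1β, 1 for TGF-β1 and 2 for OSM and changed no count. The correlations between samples with the same replicate number do not settle whether such samples share an effect.

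Leaving out 1 library at a time gave 1 to 2 members for TNF, 0 to 1 for IL-13, 0 to 1 for IFNα, 1 to 2 for TGF-β1 and 1 to 2 for OSM against unstimulated. It gave 0 to 1 for IFNα against IFNγ, 2 to 3 for TNF against IFNγ and 1 to 2 for OSM against IL-6. All changes of sign came from leaving out a library and from differences that were not called. Their ranges on the log2 scale were -4.55 to 0.29 for CXCL16 with TNF. With IL-6 they were -0.38 to 0.22 for CXCL12, -0.33 to 0.067 for CXCL14 and -4.54 to 0.40 for CXCL16. With IL-13 they were -0.42 to 0.18 for CXCL14 and -0.90 to 0.75 for CXCL16, and with IL-17A -0.29 to 0.10 for CXCL14. With IL-22 they were -0.39 to 0.22 for CXCL12 and -0.34 to 0.066 for CXCL14, and with TGF-β1 -0.29 to 0.21 for ACKR3. For IFNα against IFNγ CXCL12 ran from -0.24 to 0.35. For TNF against IL-1β CXCL16 ran from -2.98 to 1.17 and ACKR3 from -0.16 to 0.82, and for IL-17A against IL-1β CXCL16 ran from -0.33 to 0.57. Depth limits CXCL16, CX3CL1 and ACKR3, which had at most 36 counts in any library.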
